A study of Mus musculus with 6 samples.

Results

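The cadherin and protocadherin superfamily was followed in frontal cortex of mouse embryos that carry extra copies of the region around Cyfip1. Members were all genes whose platform symbol is Cdh, Pcdh, Celsr or Fat followed by a number or a cluster name, without the endothelial gene Cdh5. This gave 83 genes with 107 probes, out of 16593 genes with a named probe. Each gene was represented by its probe with the highest mean over the arrays, and all values are the authors' deposited log2 intensities.

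The study compared 3 transgenic embryos, which carry the Cyfip1-spanning BAC clone RP24-333C15 (a bacterial artificial chromosome) injected into C57BL/6J pronuclei, with 3 wild-type littermates. All 6 were male C57BL/6J embryos at embryonic day 15, and RNA of the frontal cortex of each was hybridised to its own Illumina Mouse Ref-8 v2.0 array. The labels do not say how many founder lines the transgenic embryos came from. No probe named Cyfip1 was used, so how strongly the transgene was expressed was not analysed here.

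Cadherins are membrane proteins with a row of calcium-binding extracellular repeats, through which cells that carry the same member tend to adhere. Classical cadherins are tied to actin through catenins and hold the neuroepithelium together, while type II cadherins mark areas, layers and nuclei of the developing brain. Clustered protocadherins are produced from neighbouring variable exons, a few per neuron, and give neurites a means of self-recognition, and nonclustered delta-2 protocadherins such as Pcdh10 and Pcdh17 bind the WAVE complex, of which CYFIP1 is a subunit. Flamingo cadherins (Celsr) and Fat cadherins act in planar polarity and in the growth of axon tracts.

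The arrays were not uniform in the tissue they held. Median scanner intensity ranged from 131 to 178 in transgenic samples and from 130.3 to 138 in wild-type samples, and each array's mean correlation with the others was 0.975 to 0.983, apart from 0.962 for transgenic sample 1. In the sample labelled wild-type 2 the cortical genes Tbr1 and Fezf2 stood at 7.09 and 6.72, below the median of all probes (7.18), against 9.09 to 11.16 and 8.69 to 11.19 in the other 5 samples, while the midbrain gene En2 stood at 12.23 there and at 10.98 in transgenic sample 3. Transgenic sample 1 and wild-type sample 3 held muscle and skin transcripts, with the myosin gene Myl1 at 12.90 and 11.08, against 7.15 to 7.19 elsewhere. These 2 embryos have animal numbers under 100 in the labels and the other 4 have numbers over 200, a distinction whose meaning is not given. Counts over the family are also given with these samples left out, as are the differences of several members. In RNA from bulk tissue, fewer cells of a type and less RNA per cell cannot be told apart.

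Of the 83 members, 27 lay above the median intensity of all probes and were tested, and 56 lay below it. The probes tested were 12848 of 25697. The share above the filter differed between role groups: 17 of the 33 members outside the protocadherin clusters were tested, against 10 of the 50 clustered protocadherins. All 3 Celsr genes and 3 of 4 type I cadherins were tested, against 2 of 8 alpha, 6 of 22 beta and 2 of 20 gamma protocadherins. The 56 dim members had 6-array means between 6.60 and 7.17, and their transgenic minus wild-type differences were scattered around 0, 31 below and 25 above, with a median of -0.01. Cdh10, Pcdh19 and Fat3 had no probe in the annotation used.

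**Figure D1:**
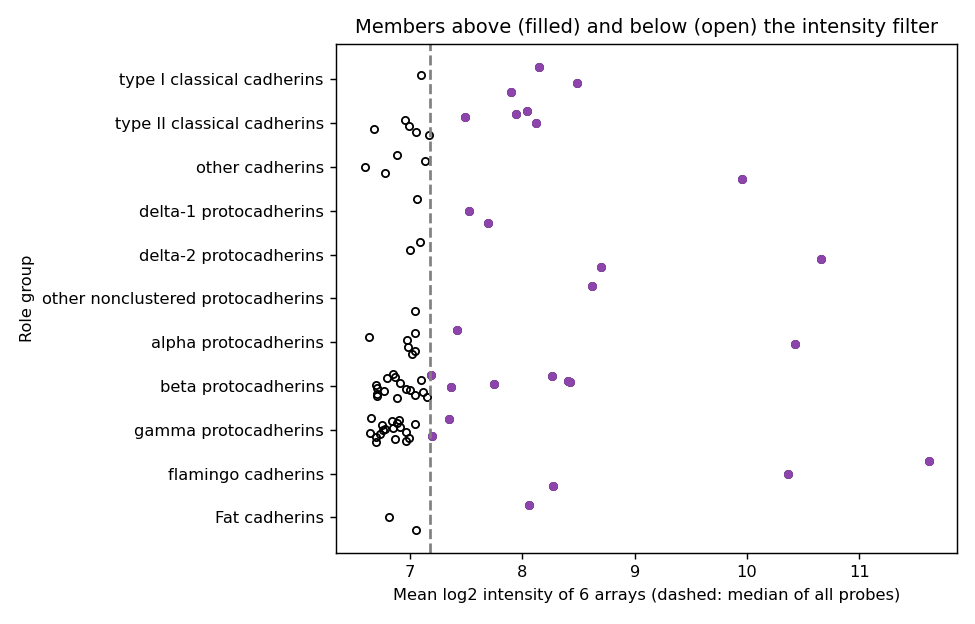
Mean log2 intensity over the 6 arrays (horizontal axis) of the 83 members by role group, 1 circle per gene, with the median of all probes (7.18) dashed. Filled circles are the 27 members tested, and open circles the 56 that were not, most of them beta and gamma protocadherins.

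Across the family, values lay lower in transgenic embryos for most tested members, and no member passed the threshold. Of the 27 tested, 22 lay below 0 and 5 above, with a median difference of -0.27 on the log2 scale, beside a median of -0.03 and 55.1% below 0 over all 9079 tested genes. Under median scaling of the arrays, 19 of the 27 lay below 0, while the median over all tested probes moved from -0.03 to 0.03. By limma, 0 members had an adjusted p under 0.05, with adjusted p-values from 0.675 to 0.991, and 0 of all tested genes did (0% in either direction). At an unadjusted limma p under 0.05, 4 members were lower (14.8%), namely Pcdh20, Pcdh10, Celsr2 and Celsr3, where 3.55% of all tested genes were. 1 member was higher (3.70%), Cdh1, where 3.81% of all tested genes were. The groups did not overlap for 8 tested members, all lower in transgenic samples (29.6%), beside 8.27% lower and 6.26% higher among all tested genes. Over all 83 members, 9 were lower without overlap and 1 higher, where 7.02% and 5.50% of all genes with a probe were.

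**Figure D2:**
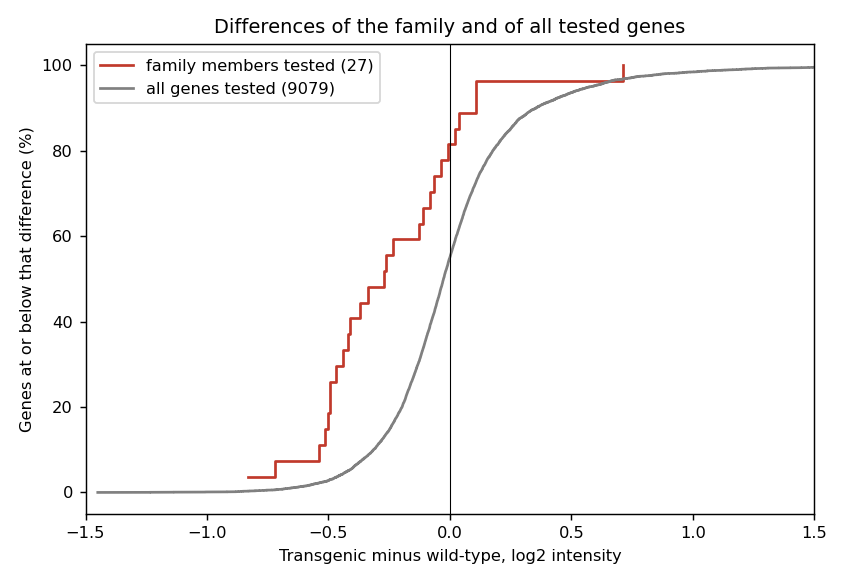
Cumulative share of genes (vertical axis, percent) at or below each transgenic minus wild-type difference (horizontal axis, log2 intensity), for the 27 tested members in red and all 9079 tested genes in grey. The members' curve lies to the left of the other for most of its course and crosses 0 at 81.5%, against 55.1% for all genes.

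Transgenic sample 1 was the lowest for most members. It held the lowest value of the 6 for 16 of the 27 members, while it was lowest for 32.0% of all tested genes. The median deviation of the members from their 6-array mean was -0.20, -0.03 and -0.07 in transgenic samples 1, 2 and 3, and 0.07, 0.19 and 0.07 in wild-type samples 1, 2 and 3. All 3 transgenic medians lay below all 3 wild-type ones, which draws on the same values as the count below 0 and is no separate support. Over all tested genes, the medians of transgenic samples 1, 2 and 3 were -0.022, -0.009 and -0.003. Those of wild-type samples 1, 2 and 3 were -0.009, 0.014 and 0.011. Without transgenic sample 1, 24 of the 27 members lay below 0, as did 53.4% of all tested genes. At an unadjusted p under 0.05, 3 members were lower (2.07% of all tested genes) and 0 higher (2.41%). Without wild-type sample 2 the counts were 21 below 0 (53.6%), 4 lower (1.89%) and 0 higher (1.55%). Without wild-type sample 3 they were 23 (53.2%), 5 (2.78%) and 0 (3.02%). Leaving out transgenic sample 2 gave 5 lower (3.63%) and 0 higher (5.72%), leaving out transgenic sample 3 gave 6 (3.87%) and 1 (3.47%), and leaving out wild-type sample 1 gave 4 (3.43%) and 1 (4.39%). With the mean of a gene's probes in place of its brightest probe, 26 members and 8712 genes were tested. In that fit 2 members were lower (3.31% of the 8712 genes) and 1 higher (3.81%). Without both transgenic sample 1 and wild-type sample 2, 23 members lay below 0 (51.8% of all tested genes), with a median of -0.15. In that fit 1 member, Pcdh20, was lower at the same p (1.32%), with 0 higher (1.44%).

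Most tested members lay below 0 in each range of animal numbers. The ranges divide the same arrays as the count over all samples, so they are no separate support for it. The range under 100 held 1 embryo of each group, transgenic sample 1 and wild-type sample 3. Between these 2 embryos, 21 of the 27 members lay below 0 (median -0.30), as did 56.3% of all tested genes. Among the 4 numbered over 200, wild-type sample 2 included, 23 members did (median -0.26), as did 52.5% of all tested genes. 18 lay below 0 in both, 66.7% of the members, where 38.8% of all tested genes did. Among the 4 embryos numbered over 200 alone, 3 members were lower at an unadjusted p under 0.05 (3.21% of all tested genes), and they were Cdh7, Pcdh17 and Pcdhb22, with 0 higher (3.52%). With the number range as a block, 12 members were lower (8.71%) and 1 higher (7.78%), again with 0 past the adjusted threshold.

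**Figure D3:**
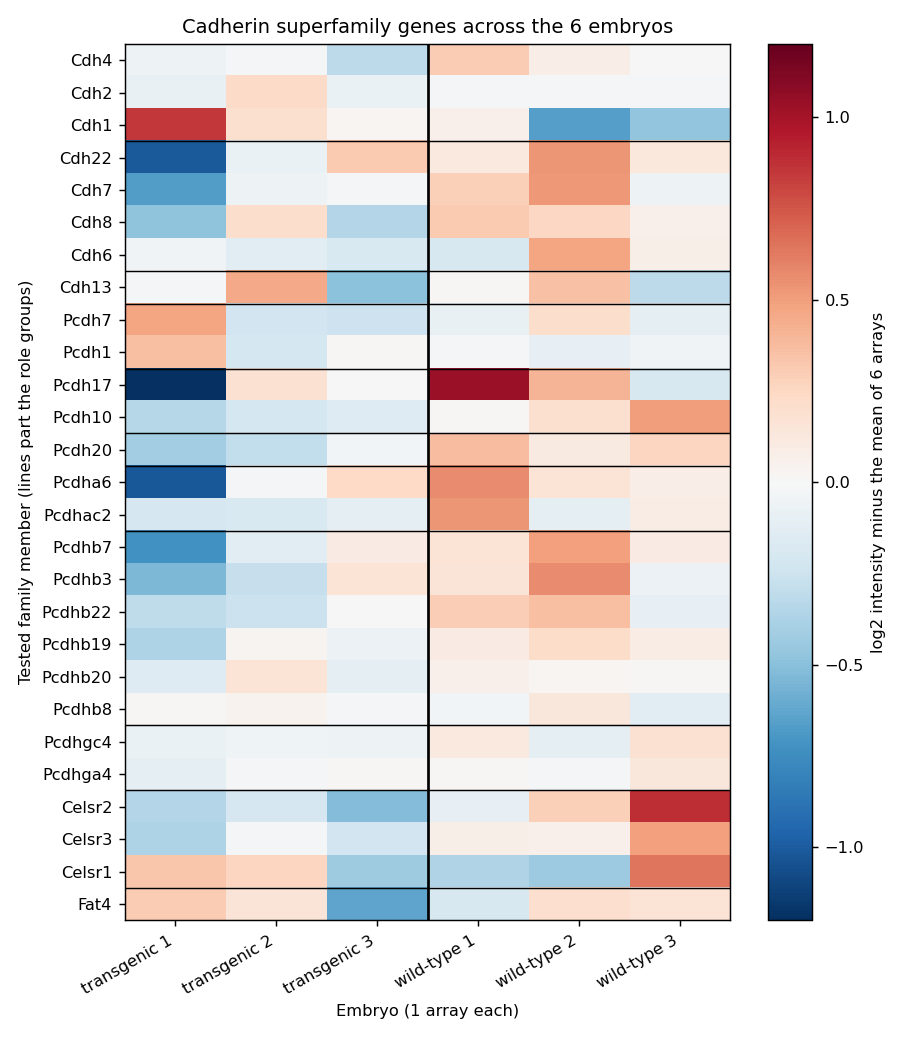
Log2 intensity minus the mean of the 6 arrays (colour, saturated at 1.2 in either direction) for the 27 tested members (rows, parted by role group) in 3 transgenic and 3 wild-type embryos (columns). Transgenic sample 1 holds the lowest value for 16 of the 27 members, while Cdh1, Pcdh7, Pcdh1 and Fat4 are highest there.

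Among the type I classical cadherins the members went different ways. Cdh2 (N-cadherin), which holds radial glia together at the ventricular surface, stood at 8.40, 8.72 and 8.40 in transgenic samples and at 8.46, 8.47 and 8.47 in wild-type samples. The transgenic values lay on both sides of the wild-type ones, and the difference was 0.04 with a 95% interval of -0.26 to 0.33. Its sign turned with the mean of its 4 probes, -0.04, and without transgenic sample 2, -0.07. Cdh4 (R-cadherin), which guides axons in retina and brain, stood at 8.09, 8.13 and 7.84 in transgenic samples and at 8.46, 8.23 and 8.16 in wild-type samples. The groups did not overlap, and the difference was -0.26 (SE 0.13, limma adjusted p = 0.675). It was -0.18 without transgenic sample 3 or without wild-type sample 1.

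Cdh1 and Cdh3, the E- and P-cadherins of epithelia, were highest in transgenic sample 1. Cdh1 stood at 8.75, 8.09 and 7.93 in transgenic samples and at 7.97, 7.24 and 7.43 in wild-type samples, so that the highest wild-type value lay just above the lowest transgenic one. The difference was 0.71 (SE 0.27, limma adjusted p = 0.675), a mean 1.64-fold higher in transgenic samples, and it was 1.33 between the embryos numbered under 100 and 0.40 among those numbered over 200. Cdh3 lay below the intensity filter and was not tested. It stood at 8.04, 6.98 and 7.11 in transgenic samples and at 6.81, 6.79 and 6.87 in wild-type samples, and its other 3 probes lay between 6.58 and 7.11. Cdh3 is singled out after its values were seen, as it falls outside the naming rule. Epidermal markers moved with that sample: of 8 with a probe, 3 were above the filter, and the summed intensity of the 8 was 2681 to 7203 in transgenic samples, where transgenic sample 1 held the maximum, and 2684 to 3207 in wild-type samples. The keratin gene Krt14 was bright in transgenic sample 1 (11.31) and wild-type sample 3 (9.15), and lay between 6.80 and 6.97 elsewhere. The part of epidermal transcripts in the Cdh1 and Cdh3 values was not tested, and Cdh1 differed by 0.46 without transgenic sample 1 and by 0.31 when wild-type sample 2 was left out as well. Its unadjusted limma p was under 0.05 only without transgenic sample 3 or wild-type sample 1, among the fits that left out 1 sample.

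All 4 tested type II cadherins lay below 0 in transgenic samples, with a median of -0.46, and 0 reached an unadjusted limma p under 0.05. With the number range as a block, Cdh7 and Cdh8 were lower at that p, as were 8.71% of all tested genes. Cdh8, which marks cortical areas and their targets, stood at 7.55, 8.25 and 7.68 in transgenic samples and at 8.35, 8.29 and 8.10 in wild-type samples, so that the difference was -0.42 (SE 0.20). Leaving out transgenic sample 1 and wild-type sample 2 gave -0.26 for Cdh8. A further tested probe of Cdh8 differed by -0.33, and in both probes transgenic sample 2 lay among the wild-type values. Cdh7 stood at 7.27, 7.89 and 7.93 in transgenic samples and at 8.23, 8.46 and 7.88 in wild-type samples, so that the difference was -0.49 (SE 0.23). It was -0.28 without transgenic sample 1, the lowest, and -0.15 when wild-type sample 2, the highest, was left out too. Cdh22 stood at 7.12, 8.05 and 8.44 in transgenic samples and at 8.24, 8.65 and 8.25 in wild-type samples. Transgenic sample 1 was far below the other samples, and the Cdh22 difference of -0.51 (SE 0.33) was -0.01 without transgenic sample 1 and wild-type sample 2. Cdh6, a cadherin of cortical and striatal subdivisions, stood at 7.45, 7.37 and 7.31 in transgenic samples and at 7.30, 7.97 and 7.57 in wild-type samples, so that the difference was -0.24 (SE 0.18). Wild-type sample 2 was highest for Cdh6, Cdh7 and Cdh22, and without it the Cdh6 difference was -0.058. Cdh11, Cdh12, Cdh19, Cdh20 and Cdh24 lay below the filter, with differences between -0.06 and 0.06, and the 3 Cdh11 probes did not share a sign.

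Among the remaining cadherins only Cdh13 (T-cadherin), which is held by a lipid anchor and lacks a cytoplasmic tail, was tested. It stood at 9.93, 10.41 and 9.47 in transgenic samples and at 9.97, 10.31 and 9.64 in wild-type samples. Both groups spanned nearly the same range, and the difference was -0.04 with a 95% interval of -0.69 to 0.62. A further tested probe of Cdh13 differed by -0.15 (SE 0.25), also with overlap. Cdh23, which with Pcdh15 forms the tip links of hair cells, and the epithelial genes Cdh16, Cdh17 and Cdh26 lay below the filter, and so did Pcdh15. In Cdh23 and Cdh26 the probes did not share a sign.

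The nonclustered protocadherins Pcdh20 and Pcdh10 and the flamingo genes Celsr2 and Celsr3 were the 4 members lower at an unadjusted p under 0.05. Their promoter windows are shown as RefSeq gives them for GRCm38.p6, from 250 bases before to 50 after the annotated start, to show what these 4 genes hold at their starts. Capitals mark matches on either strand to 3 short motifs: GGGCGG, the GC box of Sp1-type factors; CACCTG, an E-box of Snail-type repressors; and TGACG, the half-site of CREB. No 2 of these matches overlap, and 22 of the 83 members had a window in the table.
Pcdh20, chr14:88471347-88471646, minus strand: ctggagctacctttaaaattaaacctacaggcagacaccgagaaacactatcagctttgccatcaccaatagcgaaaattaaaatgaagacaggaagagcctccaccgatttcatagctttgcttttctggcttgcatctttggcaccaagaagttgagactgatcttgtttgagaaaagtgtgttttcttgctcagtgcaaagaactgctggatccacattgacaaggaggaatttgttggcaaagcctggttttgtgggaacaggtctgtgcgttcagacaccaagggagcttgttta
Pcdh10, chr3:45378148-45378447, plus strand: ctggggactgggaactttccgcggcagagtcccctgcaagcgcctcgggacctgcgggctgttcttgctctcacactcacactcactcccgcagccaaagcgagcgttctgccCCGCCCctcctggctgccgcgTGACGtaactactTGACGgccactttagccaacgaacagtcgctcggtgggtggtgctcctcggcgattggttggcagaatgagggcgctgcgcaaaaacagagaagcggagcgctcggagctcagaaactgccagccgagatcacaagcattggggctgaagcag
Celsr2, chr3:108415530-108415829, minus strand: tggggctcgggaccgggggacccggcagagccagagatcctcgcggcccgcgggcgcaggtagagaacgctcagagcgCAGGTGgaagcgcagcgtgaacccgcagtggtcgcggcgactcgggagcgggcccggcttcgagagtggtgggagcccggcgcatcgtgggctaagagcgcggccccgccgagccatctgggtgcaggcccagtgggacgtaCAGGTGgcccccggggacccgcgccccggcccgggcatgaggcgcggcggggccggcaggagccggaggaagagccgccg
Celsr3, chr9:108825795-108826094, plus strand: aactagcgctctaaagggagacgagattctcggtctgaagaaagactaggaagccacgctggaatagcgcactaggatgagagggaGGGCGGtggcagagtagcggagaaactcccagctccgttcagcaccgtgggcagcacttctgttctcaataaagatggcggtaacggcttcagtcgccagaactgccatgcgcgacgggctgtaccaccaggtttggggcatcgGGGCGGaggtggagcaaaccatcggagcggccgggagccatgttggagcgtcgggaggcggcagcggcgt
The windows differed in composition. The Celsr2 window was 76.3% G or C with 40 CpG dinucleotides, the Pcdh10 window 62.3% with 24, the Celsr3 window 60.7% with 25 and the Pcdh20 window 43.7% with 4, where the median of all 32851 windows was 52.7% and 7. The GC box occurred once in Pcdh10 and 2 times in Celsr3, and it was present in 35.7% of all windows. The E-box occurred 2 times in Celsr2 (20.2% of all windows), and the CRE half-site 2 times in Pcdh10 (20.8%). None of the 3 motifs was shared by all 4 genes, and the Pcdh20 window held no match to them. A match describes the letters only, and the absence of one says nothing of the factor.

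Pcdh20, a nonclustered protocadherin of the brain, had the smallest p in the family. It stood at 8.20, 8.33 and 8.59 in transgenic samples and at 8.99, 8.73 and 8.88 in wild-type samples. All 3 transgenic values lay below all 3 wild-type values. The difference was -0.49 (SE 0.14, limma adjusted p = 0.675), a 1.41-fold lower mean, with -0.68 between the embryos numbered under 100 and -0.40 among those numbered over 200. It ranged from -0.60 to -0.39 over 16 other settings.

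Pcdh10, a delta-2 protocadherin that recruits the WAVE complex to cell contacts and is needed for growth of striatal axons, was measured by 3 probes above the filter. Its representative probe stood at 8.35, 8.49 and 8.54 in transgenic samples and at 8.71, 8.88 and 9.19 in wild-type samples. The groups did not overlap, and the difference was -0.47 (SE 0.15, limma adjusted p = 0.675). The other 2 probes differed by -0.36, without overlap, and by -0.22, with overlap. All 3 probes therefore had the same sign. The difference was -0.84 between the embryos numbered under 100 and -0.28 among those numbered over 200.

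Pcdh17, another delta-2 member, which is found at synapses between cortex and basal ganglia, had the widest range of the family. It stood at 9.24, 10.84 and 10.65 in transgenic samples and at 11.70, 11.06 and 10.47 in wild-type samples. Wild-type sample 3 lay below 2 of the transgenic samples, and the difference of -0.83 (SE 0.49) had a 95% interval of -2.003 to 0.34. Leaving out transgenic sample 1 gave -0.33, leaving out wild-type sample 1 gave -0.52, and leaving out both transgenic sample 1 and wild-type sample 2 gave -0.34. With the number range as a block, its unadjusted limma p was 0.00815. Pcdh8, whose product removes N-cadherin from synapses in rat neurons, and Pcdh18 lay below the filter, with differences of -0.11 and -0.01.

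The delta-1 members showed no common direction. Pcdh7 stood at 7.998, 7.30 and 7.28 in transgenic samples and at 7.44, 7.74 and 7.42 in wild-type samples, so that the difference was -0.01 (SE 0.22). Pcdh1 stood at 8.06, 7.49 and 7.71 in transgenic samples and at 7.67, 7.60 and 7.66 in wild-type samples, so that the difference was 0.11 (SE 0.16). Transgenic sample 1 was the highest for both genes. A further probe of Pcdh1 was higher in transgenic samples without overlap, by 0.16, and the 2 dim probes of Pcdh7 lay above 0. Pcdh9 lay below the filter, at a difference of 0.01.

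Celsr2 and Celsr3, which organise motile cilia and the major axon tracts of the forebrain, lay lower in transgenic samples without overlap. Celsr2 stood at 10.01, 10.16 and 9.85 in transgenic samples and at 10.27, 10.65 and 11.25 in wild-type samples. The difference was -0.72 (SE 0.25, limma adjusted p = 0.675), a 1.65-fold lower mean. Wild-type sample 3 was far above the rest, and the difference was -1.24 between the embryos numbered under 100 and -0.46 among those numbered over 200. Without wild-type sample 3 it was -0.45, and its unadjusted limma p was above 0.05 without transgenic sample 3 (0.0766) and without wild-type sample 2 (0.0515). Celsr3 stood at 11.25, 11.60 and 11.39 in transgenic samples and at 11.69, 11.68 and 12.11 in wild-type samples. Wild-type sample 3 was again the highest, and transgenic sample 2 lay just below the other wild-type samples. The difference was -0.41 (SE 0.16, limma adjusted p = 0.675), with -0.86 under 100 and -0.19 over 200. Without wild-type sample 3 it was -0.27, and its unadjusted limma p was above 0.05 without that sample (0.109), without transgenic sample 1 (0.107) and without transgenic sample 3 (0.0943). The second probe of each gene lay below the filter, with -0.03 for Celsr2 and 0.08 for Celsr3. Celsr1, known for planar polarity in epithelia and progenitors, did not share this pattern. It stood at 8.61, 8.53 and 7.85 in transgenic samples and at 7.92, 7.84 and 8.92 in wild-type samples, so that the difference was 0.11 (SE 0.34).

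**Figure D4:**
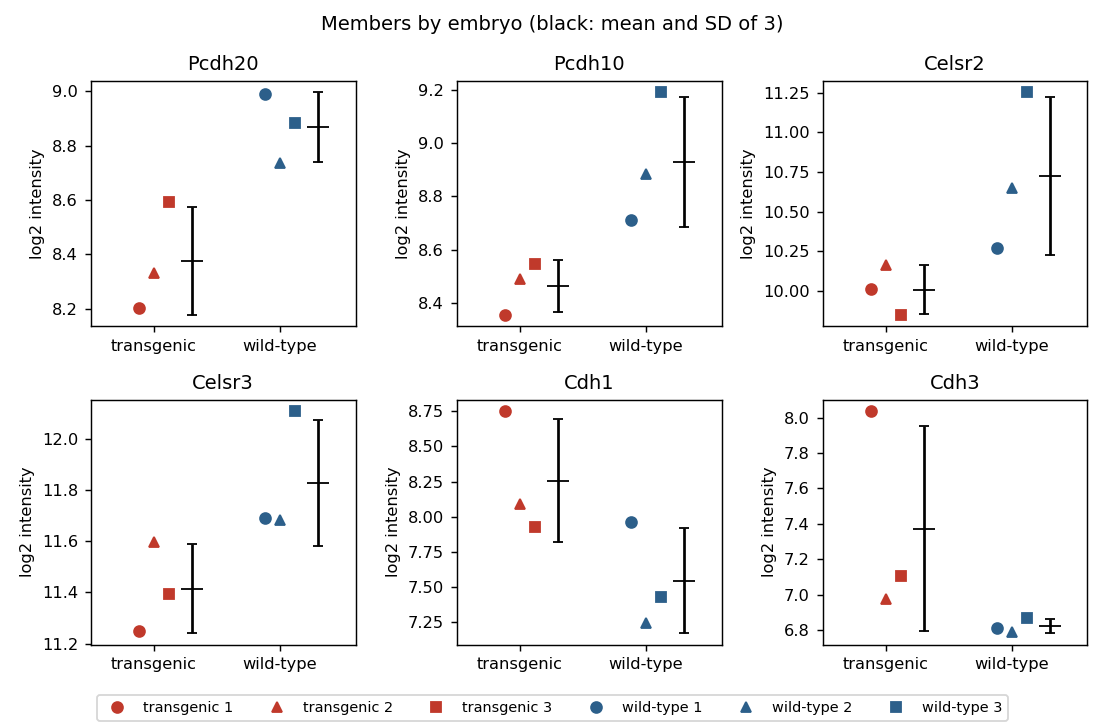
Log2 intensity (vertical axes, cut to each gene's range) of Pcdh20, Pcdh10, Celsr2, Celsr3, Cdh1 and Cdh3 by embryo, transgenic in red and wild-type in blue, with the mean and SD of 3 in black. The first 4 genes show no overlap and lower transgenic values, while Cdh1 and Cdh3 are highest in transgenic sample 1.

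Fat4, which pairs with Dachsous to set growth and polarity of cortical progenitors, stood at 8.36, 8.22 and 7.43 in transgenic samples and at 7.87, 8.26 and 8.22 in wild-type samples. The difference was -0.11 (SE 0.26), and transgenic sample 3 alone lay below all wild-type values. Fat1, and Fat2 of cerebellar granule cells, lay below the filter, with differences of -0.01 and 0.12.

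The clustered protocadherins lay mostly below 0, and most were too dim to be tested. Of the 10 tested, 9 were below 0, with a median of -0.30, and 0 reached an unadjusted limma p under 0.05. With the number range as a block 5 of the 10 did, namely Pcdha6, Pcdhb3, Pcdhb7, Pcdhb19 and Pcdhb22. That fit called more genes of every kind, 8.71% of all tested genes lower and 7.78% higher, against 3.55% and 3.81% in the main fit. The sources used here hold no probe sequences. Whether an alpha or gamma probe reads the exon of 1 isoform or the constant exons shared in its cluster was not examined. Isoforms of high sequence identity, beta ones included, may share signal. Their values are therefore given under the platform's names, and whether they are independent of each other was not tested.

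The alpha protocadherin probe named Pcdha6 stood at 9.41, 10.40 and 10.66 in transgenic samples and at 10.99, 10.59 and 10.50 in wild-type samples. Its difference was -0.54 (SE 0.33), and the groups overlapped. Without transgenic sample 1, the lowest, it was -0.16. Its second probe lay below the filter, with a difference of -0.15. Pcdhac2, a C-type isoform that serotonergic axons use to tile, stood at 7.22, 7.24 and 7.30 in transgenic samples and at 7.95, 7.31 and 7.51 in wild-type samples. The groups did not overlap, but transgenic sample 3 and wild-type sample 2 all but touched, and the difference was -0.34 (SE 0.18). Without wild-type sample 1, the highest, it was -0.16. The other 6 alpha genes lay below the filter, with differences between -0.14 and 0.04.

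Of 6 tested beta protocadherins, 5 lay below 0, with a median of -0.32. Pcdhb7 stood at 7.54, 8.14 and 8.36 in transgenic samples and at 8.43, 8.76 and 8.36 in wild-type samples, so that the difference was -0.50 (SE 0.23) with groups that all but touched. Pcdhb3 stood at 7.86, 8.13 and 8.57 in transgenic samples and at 8.56, 8.97 and 8.34 in wild-type samples, so that the difference was -0.44 (SE 0.23). Pcdhb22 stood at 8.11, 8.17 and 8.43 in transgenic samples and at 8.71, 8.78 and 8.32 in wild-type samples, so that the difference was -0.37 (SE 0.16). In these 3 genes wild-type sample 2 was the highest and transgenic sample 1 the lowest, and without both the differences were -0.14 for Pcdhb7, -0.10 for Pcdhb3 and -0.22 for Pcdhb22. Without transgenic sample 1 alone, Pcdhb7 was at -0.26 and Pcdhb3 at -0.28. Pcdhb19 stood at 6.995, 7.39 and 7.29 in transgenic samples and at 7.46, 7.58 and 7.45 in wild-type samples, so that the difference was -0.27 (SE 0.13) without overlap, and -0.16 without transgenic sample 1. Pcdhb20 and Pcdhb8 differed by -0.07 (SE 0.12) and 0.02 (SE 0.11). Among the 16 dim beta genes, 10 lay below 0, and Pcdhb10 was the one without overlap, at 6.92, 7.15 and 7.07 in transgenic samples and 7.17, 7.38 and 7.24 in wild-type samples. Pcdhb3, Pcdhb8, Pcdhb10 and Pcdhb20, like Cdh7 and Pcdhga4, fall outside the naming rule and are named with their values seen. They account for every tested member and for the dim beta gene without overlap. The dim members Cdh12, Cdh16, Cdh17, Cdh19, Cdh20, Cdh24, Pcdh15 and Fat2 also fall outside it, and are named to complete their role groups.

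The gamma protocadherins, which support survival of interneurons and dendrite branching, were nearly all dim. Pcdhgc4, the isoform known for keeping neurons alive, stood at 7.27, 7.29 and 7.29 in transgenic samples and at 7.47, 7.24 and 7.53 in wild-type samples, so that the difference was -0.13 (SE 0.11), and -0.069 without wild-type sample 3. Pcdhga4 differed by -0.08 (SE 0.10). The other 18 gamma genes lay below the filter, 10 below 0 and 8 above, with differences between -0.16 and 0.12. Both groups sat at the level of dim probes in these 18 genes, and none was tested.

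**Figure D5:**
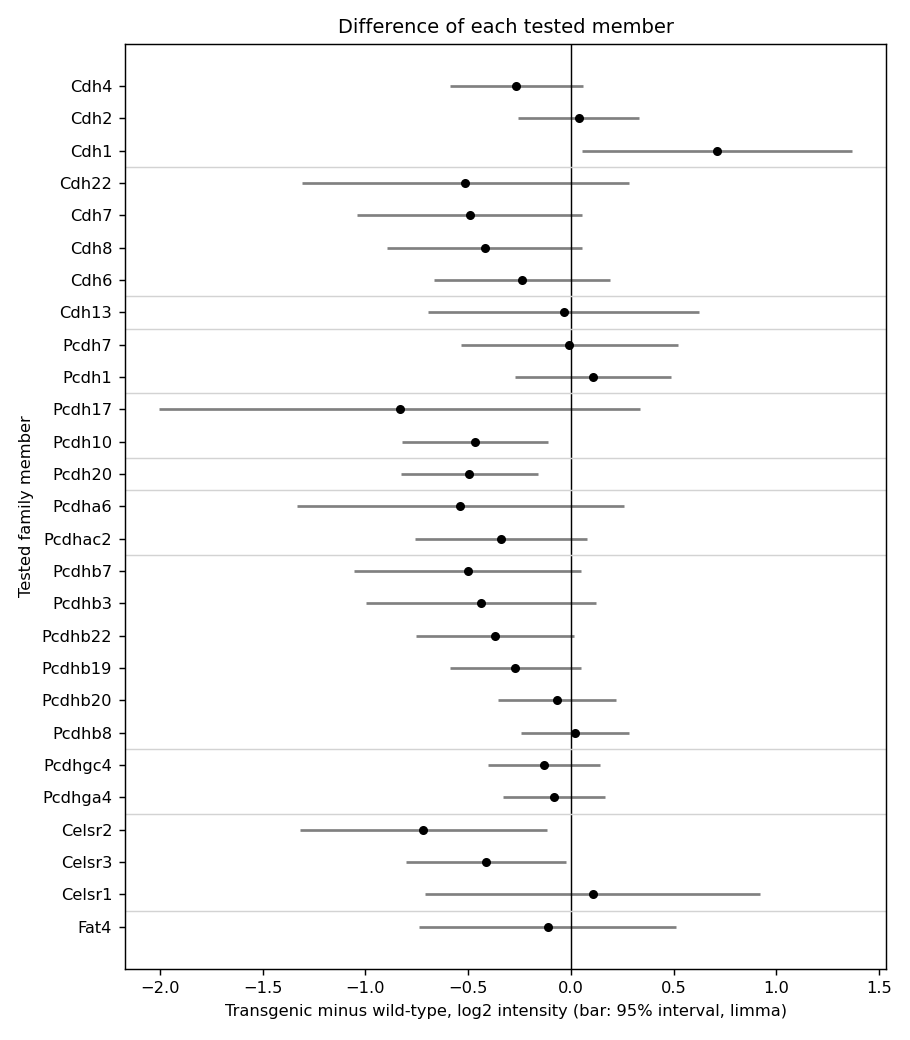
Transgenic minus wild-type difference in log2 intensity (horizontal axis) with its 95% interval from limma for the 27 tested members, ordered by role group from type I cadherins at the top to Fat4 at the bottom. The intervals of Pcdh10, Pcdh20, Celsr2 and Celsr3 lie below 0 and that of Cdh1 above it, before any adjustment for the number of probes.

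Partners of the cadherins showed differences in both directions, and 0 of the genes on any of the lists that follow passed the adjusted threshold. Of 17 catenins and junction partners with a probe, 10 were tested, 6 above and 4 below 0 with a median of 0.07. Ctnna1, which links beta-catenin to actin, averaged 12.52 ± 0.28 in transgenic and 11.96 ± 0.33 in wild-type samples (SD, n = 3 each). It was the 1 gene of this list at an unadjusted p under 0.05, with a difference of 0.56 (SE 0.22). Of all tested genes, 3.81% were higher at that p. The tight junction scaffold Tjp1 differed by 0.25, vinculin (Vcl) by 0.48 and the neuronal delta-catenin Ctnnd2 by -0.31. Of the cytoplasmic partners of protocadherins, among them subunits of the WAVE complex, 10 were tested, 3 above and 7 below 0 with a median of -0.11. Abi2, a WAVE subunit, differed by -0.32 (SE 0.17), and Pdcd10, Fyn and Marcks by -0.20, -0.11 and -0.10.

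Genes that act on the protocadherin clusters or on polarity were likewise spread around 0. Of 10 tested regulators of the clusters, 7 lay below 0 (median -0.11). Ctcf, whose protein loops enhancers to cluster promoters, differed by -0.21 (SE 0.11) without overlap, the repressors Setdb1 and Smchd1 by -0.20 and -0.17, and Wiz by -0.31. Of 8 tested genes of planar polarity and the Fat-Dachsous pathway, 4 lay on either side (median -0.02). Dvl1, which relays Frizzled signals, differed by -0.36 (SE 0.14) and the receptor Fzd6 by 0.36 (SE 0.14). Both showed no overlap and an unadjusted p under 0.05. Over all tested genes, 3.55% were lower and 3.81% higher at that p, and 8.27% and 6.26% showed no overlap. Fjx1 differed by -0.36 and Yap1 by 0.49. Of 9 tested proteases and trafficking genes, 4 lay above and 5 below 0 (median -0.08), and Hgs, which sorts endocytosed receptors, was the 1 at an unadjusted p under 0.05, with a difference of -0.32 (SE 0.12). Mmp24, which cleaves N-cadherin, differed by -0.67, Furin by 0.43 and Psenen by 0.17. Among 5 tested genes of the wider superfamily, 2 lay above and 3 below 0 (median -0.03). Cdh5 differed by 0.43, Clstn3 by -0.54, Clstn1 by -0.19 and Cdhr1 by 0.14.

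Markers of several cell types moved between the groups beside these values. All 12 meningeal and fibroblast markers were tested and lay above 0, and their summed intensity was 26792 to 58863 in transgenic samples and 10754 to 27221 in wild-type samples. All 10 tested of 11 endothelial markers lay above 0, with sums of 7042 to 9833 in transgenic samples and 4933 to 7530 in wild-type samples. All 11 microglial markers did so too, with sums of 5284 to 5828 in transgenic samples and 2407 to 4273 in wild-type samples. Choroid plexus markers lay above 0 in 7 of 8 tested, with sums of 5015 to 32895 in transgenic samples and 1567 to 14727 in wild-type samples. Cortical neuron markers lay above 0 in 7 of 9 tested, with sums of 9381 to 23459 in transgenic samples and 9278 to 18071 in wild-type samples, and markers of thalamus, midbrain and hindbrain below 0 in 9 of 13 tested, with sums of 4900 to 12992 in transgenic samples and 4126 to 31913 in wild-type samples. Skeletal muscle markers lay above 0 in 9 of 10 tested, with sums of 1580 to 24594 in transgenic samples and 1751 to 6556 in wild-type samples. Markers of cortical progenitors lay above 0 in 7 of 9 tested, with sums of 14284 to 16902 in transgenic samples and 11700 to 18330 in wild-type samples, and those of ganglionic eminence and interneurons in 4 of 6, with sums of 10332 to 18833 in transgenic samples and 5368 to 20722 in wild-type samples. At an unadjusted limma p under 0.05, 7 meningeal, 4 endothelial, 7 microglial and 4 choroid plexus markers were higher and 0 lower. Of all tested genes, 3.81% were higher at that p. The median differences of these lists were 1.51, 0.50, 0.73 and 1.49. In the remaining lists 1 cortical progenitor marker was lower at that p and none was higher. The part of these cell types in the lower values of the cadherin superfamily was not tested.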

How the data were processed

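RNA of 6 embryos was measured on Illumina bead arrays of a single slide. The submitters' processing notes name BeadStudio without its settings. The deposited scanner table holds 1 linear intensity per probe and array, with 72.8 as its lowest value. The deposited log2 values of the authors equal quantile normalization of the log2 intensities to within 5e-09. They were used as the main values, and no detection p was used here. The number of arrays limits the precision.

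Probes were named by the platform annotation, 23978 of 25697, and all 83 members' symbols matched RefSeq genes of GRCm38.p6 by gene identifier. Probes with a 6-array mean above the median were tested with limma 3.58.1 in R 4.3.3 (lmFit, eBayes, two-sided, transgenic minus wild-type, no covariate), with Benjamini-Hochberg adjustment across the tested probes, threshold 0.05. An exact permutation test of 3 against 3 cannot give a p below 0.1, and none was used. The fit was tested on simulated data. The labels name separate animals, and sample numbers only name samples.

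Members, lists and settings were chosen with earlier results of these data known. The members named were those known from embryonic cortex, up to 8 in each direction without overlap by smallest p, the highest mean of each role group, the 5 widest ranges, those whose probes differ in sign, and up to 4 genes of each partner list by smallest p. Alternatives were normexp background correction with an offset of 50, cyclic loess, median scaling, no intensity filter and the mean of a gene's probes. Others were array weights, the animal number range as a block, eBayes with trend and robust options, and samples left out.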

Additional observations from a re-analysis of the deposited data

How the results depend on the processing

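No setting gave a family member, or any probe, past the adjusted limma threshold, and at an unadjusted p under 0.05 the main setting called 4 members lower and 1 higher. The number lower was 12 when the range of animal numbers was a block (8.71% of all tested genes). It was 2 of 26 with the mean of a gene's probes (3.31% of 8712 genes). It was 1 with transgenic sample 1 and wild-type sample 2 left out (1.32%). When any 1 sample was left out it was 3 to 6 (1.89% to 3.87%). The number higher was 0 among animals numbered over 200 (3.52%), 0 with both transgenic sample 1 and wild-type sample 2 left out (1.44%), and 0 to 1 with 1 sample left out (1.55% to 5.72%). The median difference of the family was -0.36 after normexp, -0.15 with that pair left out, and -0.33 to -0.26 with 1 sample left out. With no intensity filter it was -0.047 over all 83 members, and -0.27 over the 27 tested in the main setting.

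Of the 27 tested members, 18 kept their direction under all 16 settings, and the others had main differences between -0.11 and 0.11. Under median scaling Cdh13 was 0.039, Pcdh7 0.037 and Pcdhb20 0.022, and with cyclic loess Pcdh7 was 0.014. With the mean of its probes Cdh2 was -0.037, and with array weights Pcdhb8 was -0.029. Among animals numbered over 200, Pcdh1 was -0.040, Pcdhb8 -0.042 and Pcdhga4 0.0071. With that pair left out, Cdh13 was 0.14, Celsr1 -0.22 and Pcdh1 -0.067. With 1 sample left out, the differences ran from -0.27 to 0.20 for Cdh13, -0.069 to 0.093 for Cdh2, -0.085 to 0.45 for Celsr1, -0.29 to 0.17 for Fat4, -0.046 to 0.24 for Pcdh1, -0.25 to 0.12 for Pcdh7 and -0.040 to 0.095 for Pcdhb8. The cause was not tested. The labels give no shared replicate numbers, so samples were not paired by number. The block used the range of animal numbers. Low signal limits the 56 dim members, which were not tested at the main filter.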
